A study of Mus musculus with 10 samples.

Results

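Class IIa histone deacetylases (HDACs) and the MEF2 transcription factors were compared gene by gene between Arid1b heterozygous (HT) and wild-type (WT) mice. The genes were chosen by symbol from the deposited table, namely Hdac4, Hdac5, Hdac7 and Hdac9 for the class IIa HDACs and Mef2a, Mef2c and Mef2d for the MEF2 family, which makes 7 of the 18216 genes listed. All 7 genes were found once, and all passed the filter on low values. Mef2b, the remaining MEF2 gene, was not analysed here.

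RNA sequencing of the prefrontal cortex was done in male C57BL/6N mice at postnatal day 10 (P10), with 1 library per mouse and 5 mice per genotype. HT mice (HT1 to HT5) carried 1 copy of Arid1b, a subunit of the BAF chromatin-remodelling complex, with a truncating CRISPR/Cas9 mutation in exon 5, and WT mice (WT1 to WT5) carried none. All mutants derived from a single edited line, in which heterozygous males were bred to WT females of the same strain, and the allele was present in every cell type from conception. No mouse of either group was treated, and genotype was the only factor that the labels set between the groups.

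Class IIa HDACs carry only weak deacetylase activity of their own and act mainly as signal-responsive repressors. In the nucleus they bind MEF2 proteins on DNA and recruit a corepressor complex with HDAC3, which silences MEF2 target genes. Phosphorylation by calcium/calmodulin-dependent kinases, protein kinase D and salt-inducible kinases creates docking sites for 14-3-3 proteins, and the deacetylases are then held in the cytoplasm, which frees MEF2. In neurons, MEF2 factors drive activity-dependent genes that shape the number of excitatory synapses. The study followed HDAC4 and MEF2A as a pathway upstream of synaptic genes, and the question addressed here was whether the transcripts of the family differed between the genotypes.

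Values are normalised counts, meaning estimated reads per gene divided by a size factor for each library, and sequencing depth is unknown. The normalised counts summed to between 31106330 and 32106791 per mouse, and samples correlated at 0.981 to 0.990 on the log2 scale. Arid1b itself ranged from 1767 to 1987 in HT and from 2662 to 3018 in WT mice without overlap, so each library matched its label, with a log2 difference of -0.59 (SE 0.05, limma adjusted p = 9.96e-05). HT2 stood apart from the other libraries, with 8.43% of its normalised counts from the mitochondrial genome against 5.15% to 6.76% in the other mice. The same mouse had the highest summed astrocyte, microglia and endothelial markers and the lowest summed glutamatergic markers of the 10. For that reason several results are also given without HT2. By the mean log2 value over the markers, HT5 was above HT2 for astrocyte (13.15 against 13.04) and microglia markers (10.07 against 10.02). Markers of cortical glutamatergic neurons, which check the labelled tissue, summed to between 55470 and 73577 in HT and between 61679 and 75927 in WT mice. Striatal markers varied more between mice, from 6708 in WT3 to 23702 in HT3, and no marker was at 0 in any mouse.

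MEF2 proteins bind a 10-base A/T-rich element known as the MEF2 consensus. Both strands of the RefSeq promoter windows (GRCm38.p6, 250 bases before to 50 bases after each start) were searched for this element, and 3.19% of all 32851 windows held a match. Among the 13 windows of the 7 genes, 2 held one, those of Mef2a and Hdac5. Of the 18 windows found for 11 of 12 known MEF2 target genes, 2 held one, and the window of Jun is shown with the others because Jun had the smallest p among the target genes below. The sequences run 5′ to 3′ on the strand of the gene from 250 bases before the start to 30 bases after it, with the element in capitals.
Mef2a, chr7:67372829-67373108, minus strand: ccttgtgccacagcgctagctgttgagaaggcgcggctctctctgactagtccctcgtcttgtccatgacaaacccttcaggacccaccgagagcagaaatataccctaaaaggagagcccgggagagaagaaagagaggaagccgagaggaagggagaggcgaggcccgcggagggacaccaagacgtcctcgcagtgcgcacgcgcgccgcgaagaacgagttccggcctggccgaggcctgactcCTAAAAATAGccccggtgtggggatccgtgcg
Hdac5, chr11:102230143-102230422, minus strand: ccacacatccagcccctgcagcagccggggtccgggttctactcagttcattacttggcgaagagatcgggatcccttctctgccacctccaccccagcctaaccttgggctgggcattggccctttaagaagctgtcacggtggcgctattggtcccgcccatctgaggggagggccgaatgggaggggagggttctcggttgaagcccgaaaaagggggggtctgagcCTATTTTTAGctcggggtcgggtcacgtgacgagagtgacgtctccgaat
Jun, chr4:95052193-95052472, minus strand: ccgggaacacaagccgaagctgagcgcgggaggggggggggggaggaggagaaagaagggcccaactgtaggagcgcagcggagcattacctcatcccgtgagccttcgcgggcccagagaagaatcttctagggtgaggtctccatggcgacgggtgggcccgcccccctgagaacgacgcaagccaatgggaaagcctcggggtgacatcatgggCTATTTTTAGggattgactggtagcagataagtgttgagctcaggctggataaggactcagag
The match lay at bases -2 to 8 in Mef2a, at -20 to -11 in Hdac5 and at -33 to -24 in Jun, counted from the first transcribed base as 1 with no base 0. The windows also differed in base composition. Both Hdac9 windows (44.0% and 45.3% GC) and the 3 Mef2c windows (35.7% to 48.3% GC) were below the median of 52.7% over all windows, whereas the windows of the other 5 genes held 54.7% to 73.7% GC. A match to these letters is a description of the window and was not tested as a binding site.

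None of the 7 genes passed the adjusted threshold between the genotypes (limma, 0 of 7), where 3 of 16781 genes tested (0.0179%) did. At an unadjusted p under 0.05, 1 of 7 did, Hdac9, where the background was 9.23% of genes. The exact permutation test of the same values gave 1 of 7, again Hdac9, and its share over all genes was not computed. No member had HT and WT values that did not overlap (0 of 7), against 1.62% of genes tested. Of the 7, 5 had a lower and 2 a higher estimate in HT mice, with a median log2 difference of -0.02 against 0.00 over all genes.

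**Figure D1:**
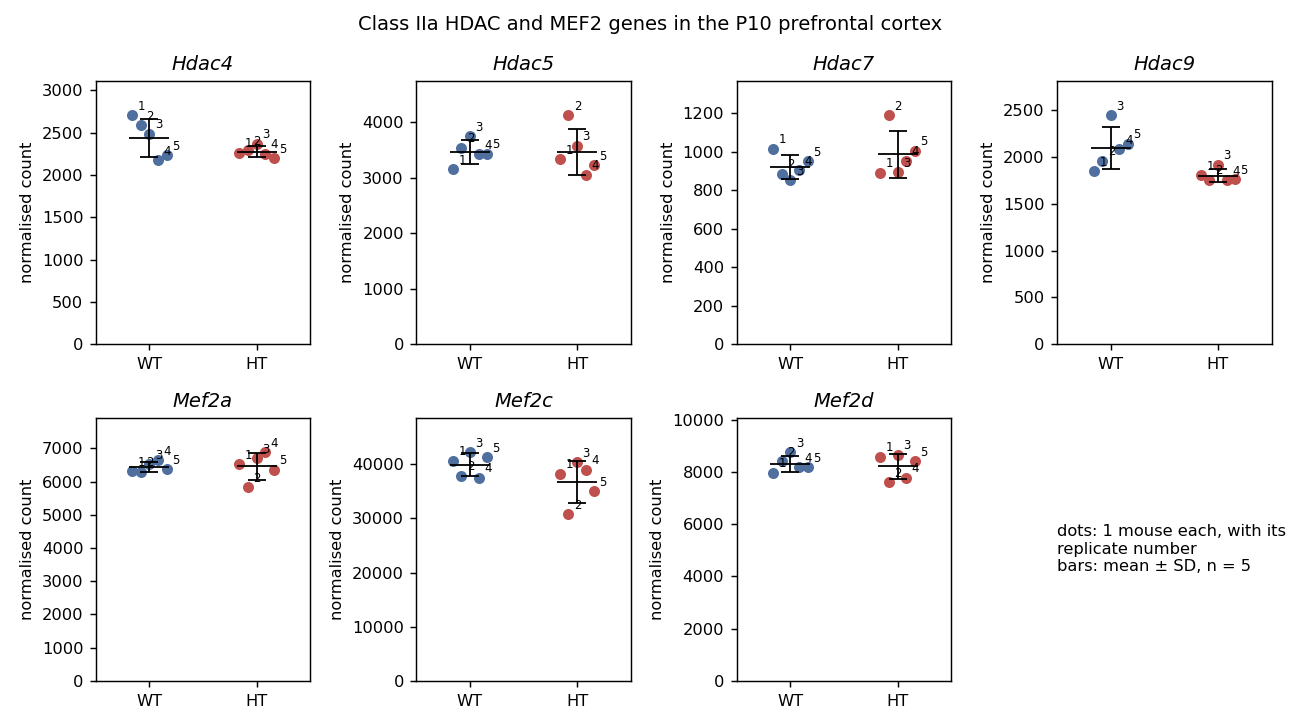
Normalised counts of the 7 genes in each mouse, WT in blue and HT in red, with each dot 1 mouse marked by its replicate number and bars showing the mean ± SD (n = 5). The genotypes overlap in every panel, in the Hdac9 panel 4 HT mice lie below the lowest WT mouse, and HT2 is the lowest mouse for Mef2a, Mef2c and Mef2d.

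Hdac9 (ENSMUSG00000004698, GRCm38 chr12:34047580-34917095, minus strand) encodes a class IIa deacetylase that also exists as a short form without the catalytic domain, which can still repress MEF2. It had normalised counts of 1806, 1760.3, 1918, 1751 and 1765 in HT1 to HT5 and of 1852, 1963, 2448, 2085 and 2146 in WT1 to WT5. In all, 4 HT mice were below the lowest WT mouse, and the overlap came from HT3, which was above WT1. The means were 1800.1 ± 69.3 in HT and 2098 ± 226 in WT (SD, n = 5 each), so that HT was at 85.8% of WT. The log2 difference was -0.22 (SE 0.07), with a 95% interval of -21.9% to -5.00%. Its limma adjusted p was 0.46, and 209 of the genes tested had a smaller p. The exact two-sided permutation p was 0.0159, where the smallest possible with 5 against 5 is 0.00794, and all 5 HT mice were below the WT mean.

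With each mouse left out in turn, the Hdac9 difference ran from -0.26 without WT1 to -0.16 without WT3, the highest mouse (limma adjusted p = 0.76), and stayed at an unadjusted p under 0.05 each time. Without HT2 it was -0.21. Several groups of markers went the other way between the genotypes, astrocyte markers among them. All 10 had a higher estimate in HT mice, 7 of them at an unadjusted limma p under 0.05 and none after adjustment, with a median log2 difference of 0.23 and sums of 169506 to 213987 in HT against 153706 to 181107 in WT mice. Without HT2, 9 of the 10 were higher, 4 at an unadjusted p under 0.05, with a median of 0.18. Markers of the oligodendrocyte lineage also had a higher estimate in HT mice for 10 of 10 (median 0.24, sums of 65801 to 89765 in HT and 38667 to 92337 in WT), with the lowest sum in WT3. Striatal markers had one for 10 of 11 (median 0.53), and interneuron markers for 6 of 10 (median 0.02). Without HT2, 9 of 10 oligodendrocyte and 10 of 11 striatal markers were higher. With the astrocyte score, the mean log2 value over these markers, as a covariate, the Hdac9 difference was -0.14 and no longer at an unadjusted p under 0.05 (limma adjusted p = 0.997), and with the glutamatergic score it was -0.19 and with the striatal score -0.18. The part of cell content in the Hdac9 difference was not tested, and in bulk tissue fewer cells of a type and less RNA per cell cannot be told apart.

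Hdac4 (ENSMUSG00000026313, chr1:91928779-92195699, minus strand), the deacetylase followed by the study, shuttles between nucleus and cytoplasm with neuronal activity. Its normalised counts were 2266, 2292, 2369, 2253 and 2200.1 in HT1 to HT5 and 2705, 2587, 2489.8, 2178 and 2233 in WT1 to WT5. WT1, WT2 and WT3 were above every HT mouse, whereas WT4 and WT5 lay among or below the HT mice. The means were 2276 ± 61.9 in HT and 2438 ± 227 in WT (SD, n = 5 each), a log2 difference of -0.09 (SE 0.06) with a 95% interval of -14.3% to 2.32%. The exact permutation p was 0.183 (limma adjusted p = 0.61), and all 5 HT mice were below the WT mean. Without WT4, the lowest mouse, the difference was -0.13 and at an unadjusted p under 0.05 (limma adjusted p = 0.43), and without WT1, the highest mouse, it was -0.06 (limma adjusted p = 0.78). The exons of Hdac4 share 3536 bases with Gm26720 on the opposite strand, and whether counting used strand is not given in the sources used here.

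Hdac5 (ENSMUSG00000008855, chr11:102194432-102230166, minus strand), another activity-regulated repressor of MEF2, had 3336, 4121, 3572, 3053 and 3218 in HT1 to HT5 and 3153, 3537, 3744, 3417 and 3427 in WT1 to WT5. HT mice gave both the highest value (HT2) and the lowest (HT4), around nearly equal means. These were 3459.8 ± 415 in HT and 3456 ± 214 in WT (SD, n = 5 each), with a 95% interval of the difference of -10.6% to 11.2% (limma adjusted p = 0.99). Without HT2 the log2 difference moved from 0.00 to -0.07.

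Hdac7 (ENSMUSG00000022475, chr15:97792664-97844502, minus strand) is best known for its roles in endothelial cells and lymphocytes. It had 890.4, 1189, 893, 952 and 1004 in HT1 to HT5 and 1015, 885, 852, 904 and 949.8 in WT1 to WT5. HT2 was well above every other mouse, and the remaining HT mice lay within the WT range. Means of 986 ± 123 in HT and 921 ± 63.2 in WT (SD, n = 5 each) gave a log2 difference of 0.09 (SE 0.08) and a 95% interval of -5.33% to 19.98% (limma adjusted p = 0.71). Without HT2 the difference was 0.02.

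Mef2c (ENSMUSG00000005583, chr13:83504034-83667080, plus strand), the MEF2 gene needed for the development of cortical excitatory neurons and also active in microglia, was the most abundant member. Its normalised counts were 38298, 30828, 40422, 39015 and 35072 in HT1 to HT5 and 40670.3, 37912, 42272, 37557 and 41291 in WT1 to WT5. HT2 and HT5 were below every WT mouse, and the other 3 HT mice lay within the WT range. The means of 36727 ± 3837 in HT and 39941 ± 2097 in WT (SD, n = 5 each) gave a log2 difference of -0.13 (SE 0.07) with a 95% interval of -17.8% to 2.14% (exact permutation p = 0.151, limma adjusted p = 0.59). Without HT2 the difference was -0.06. It was -0.03 with the glutamatergic score and 0.01 with the astrocyte score as a covariate, so that the direction of the Mef2c estimate was not kept under every setting. Glutamatergic markers had a lower estimate in HT mice for 7 of 9, with a median log2 difference of -0.06, and microglia markers a higher one for 11 of 11, with a median of 0.16. Without HT2 these counts were 5 of 9 and 10 of 11, with medians of -0.09 and 0.10.

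Mef2a (ENSMUSG00000030557, chr7:67231163-67372858, minus strand), the MEF2 factor studied most in synapse elimination, had 6517, 5832, 6699, 6889 and 6353 in HT1 to HT5. The WT mice had 6318, 6294, 6523, 6649.9 and 6365. HT mice again gave both extremes, HT4 the highest and HT2 the lowest. Means of 6458 ± 403 in HT and 6429.9 ± 152 in WT (SD, n = 5 each) differed by 0.00 on the log2 scale (SE 0.05), with a 95% interval of -6.51% to 7.61% (limma adjusted p = 0.98).

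Mef2d (ENSMUSG00000001419, chr3:88142372-88172086, plus strand), which is expressed in most neurons, had 8594, 7614, 8669, 7779 and 8413 in HT1 to HT5 and 7974, 8413, 8765, 8188 and 8194 in WT1 to WT5. The values of both genotypes spanned nearly the same range, with HT2 and HT4 lowest. The means were 8214 ± 485 in HT and 8307 ± 299 in WT (SD, n = 5 each), with a log2 difference of -0.02 (SE 0.05) and a 95% interval of -8.02% to 6.12% (limma adjusted p = 0.92). The signs of the near-zero Hdac5, Mef2a and Mef2d estimates changed with the scaling or with the mice included. Without HT2 the log2 difference was 0.04 for Mef2a and 0.01 for Mef2d.

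**Figure D2:**
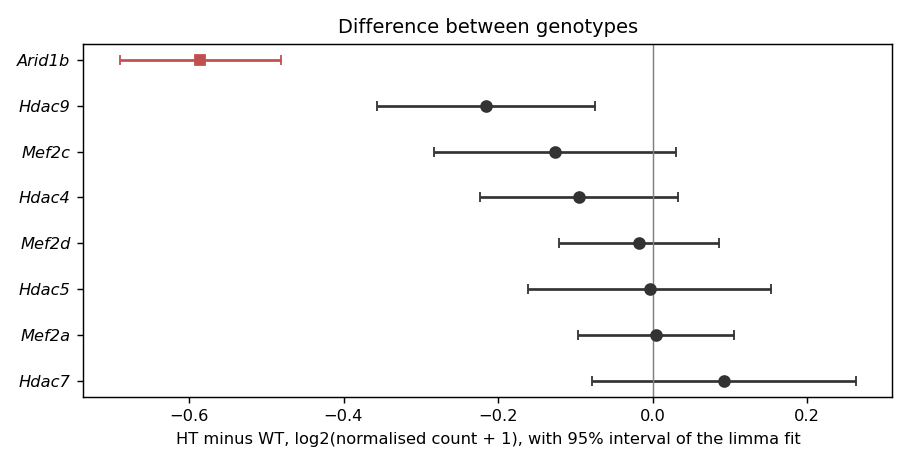
HT minus WT difference of the 7 genes and of Arid1b on the log2(normalised count + 1) scale, with bars for the 95% interval of the limma fit over 5 HT and 5 WT mice. The interval of Arid1b (square) lies below 0, that of Hdac9 runs from -0.36 to -0.07, and the intervals of the other 6 members cross 0.

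Over the 10 mice the coefficient of variation of the members ran from 4.46% for Mef2a to 11.4% for Hdac9, and the 95% intervals of the 7 differences lay between -21.9% and 19.98%. A change the size of that in Arid1b was therefore outside the interval of every member. Their transcripts share few 31-base words with other genes, from 0 for Mef2d to 2.92% for Mef2a. Exons of Mef2d, Mef2a and Hdac7 share 531, 302 and 29 bases with a gene on the opposite strand, and Hdac5 shares 111 bases with Mir8101 on the same strand.

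Levels of different genes were compared per kilobase of exon. Mef2c was highest at 2439 normalised counts per kilobase (range 1962 to 2689.9 over the 10 mice), followed by Mef2d at 1380.2 (1272 to 1464). Mef2a at 439 (397 to 469) and Hdac5 at 394 (348 to 469) overlapped in range. Hdac4 at 149 (138 to 171) overlapped with Hdac7 at 141 (126 to 176), and Hdac7 with Hdac9 at 133 (119 to 167). The means of all 3 MEF2 genes were above that of Hdac5, the most abundant class IIa HDAC per kilobase. With the longest protein-coding transcript as the length, Mef2c was at 6107, Mef2a no longer overlapped with Hdac5, and Hdac9 at 245 was placed above Hdac7 at 226, again with overlap.

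**Figure D3:**
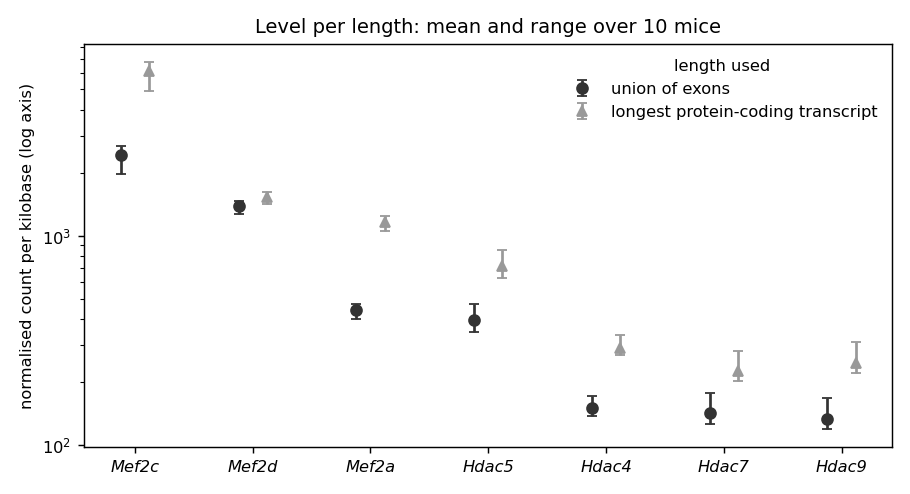
Normalised counts per kilobase of the 7 genes on a log axis, with points for the mean and bars for the range over 10 mice, by 2 definitions of length. Mef2c is highest and Hdac4, Hdac7 and Hdac9 are lowest and overlap by either length.

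Within each family the same gene had the highest share in both genotypes. Hdac5 made up 48.7% ± 2.04 (SD, n = 5) of the class IIa HDAC level per kilobase in HT and 47.6% ± 1.74 in WT mice, and Hdac9 15.3% ± 1.18 in HT and 17.3% ± 1.38 in WT. Mef2c made up 56.2% ± 1.81 of the MEF2 level per kilobase in HT and 58.2% ± 1.32 in WT mice. These shares depend on the length used. With the longest protein-coding transcript, Mef2c made up 68.4% in HT and 70.2% in WT mice. Hdac5 then made up 48.9% and 47.6%, and Hdac9 15.7% and 17.6%.

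A single scaling factor for a library would cancel in the ratio of paralogs within a mouse. Whether only a single factor was applied to each library was not tested. The 9 pairs within a family were compared between the genotypes as log2 ratios of normalised counts. The test was exact two-sided permutation with Benjamini-Hochberg adjustment over the 9. The Hdac5/Hdac9 ratio was 0.94 ± 0.17 in HT and 0.72 ± 0.09 in WT (SD, n = 5 each), a difference of 0.21 with an exact p of 0.0159 and an adjusted p of 0.143. All 5 HT mice were above the WT mean, and HT2 at 1.23 lay apart from the other HT mice at 0.80 to 0.90. Without HT2 the difference was 0.14 (exact p = 0.0317, adjusted 0.286). The Hdac7/Hdac9 ratio differed by 0.31 and the Mef2a/Mef2c ratio by 0.13, each with an exact p of 0.0556 and an adjusted p of 0.167, and for both ratios all 5 HT mice were above the WT mean. Without HT2 the Hdac7/Hdac9 difference was 0.23 (exact p = 0.119). Hdac4/Hdac9 was also above the WT mean in all 5 HT mice, by 0.12 on average (exact p = 0.230, adjusted 0.345), with 0.20 without WT1 and 0.07 without WT3.

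The remaining 5 ratios, Hdac4/Hdac5, Hdac4/Hdac7, Hdac5/Hdac7, Mef2a/Mef2d and Mef2c/Mef2d, differed by -0.19 to 0.02, with exact permutation p-values of 0.111 to 0.762. Without HT2 the Hdac4/Hdac5 difference moved from -0.09 to -0.03, and to -0.02 without WT1, and the Hdac4/Hdac7 difference moved from -0.19 to -0.12 without HT2. Hdac5/Hdac7 moved from -0.10 to -0.16 without WT1 and to -0.04 without WT3. In all, 0 of 9 ratios passed after adjustment, 1 of 9 had an unadjusted exact p under 0.05 (3 of 9 after quantile normalisation, with Hdac7/Hdac9 and Mef2a/Mef2c), and none was without overlap between the genotypes. The 3 ratios against Hdac9 share that gene, so they are not separate observations.

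**Figure D4:**
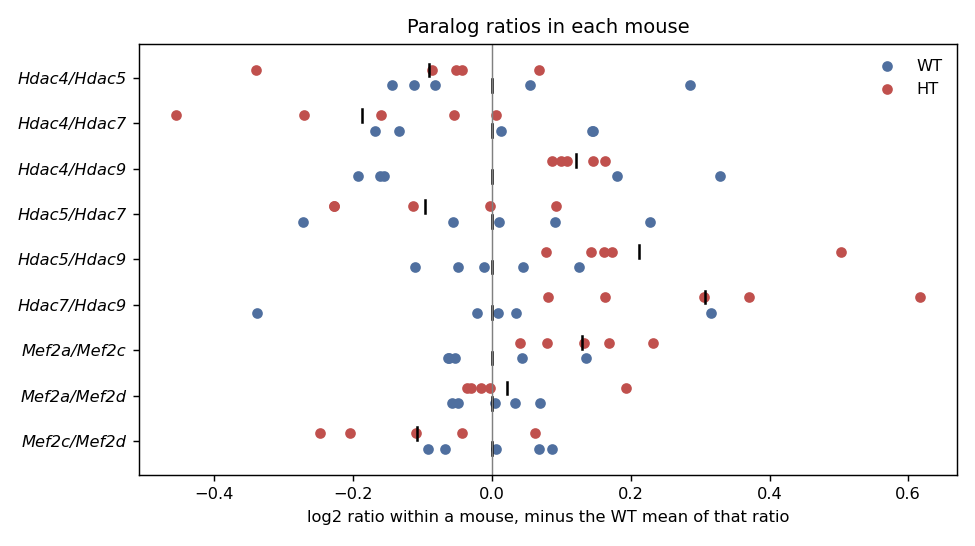
Log2 ratio of each paralog pair in each mouse, minus the WT mean of that ratio, with WT mice in blue, HT mice in red and a black tick for each genotype mean. HT dots lie to the right of the WT mean for all 3 ratios with Hdac9 below the line and for Mef2a/Mef2c, and every pair of groups overlaps.

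The members were next compared with each other and with 6 marker scores across the 10 mice. This gave 63 relations, 21 between members and 42 with the scores, each with a permutation p from 100000 resamples and adjustment over all 63. By Pearson's r, 5 passed at an adjusted p of 0.0495 each, so near the threshold that the error of the resampling alone could end these calls, and by Spearman's rho 0 did (smallest adjusted p = 0.152). At an unadjusted p under 0.05 for r there were 15. Hdac7 followed the endothelial score (r = 0.90, p = 0.00202; rho = 0.68, p = 0.0346), and Mef2c followed the glutamatergic score (r = 0.89, p = 0.00254; rho = 0.78, p = 0.0107), all by permutation.

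Another 3 relations that passed by r were inverse. They were Mef2c with the microglia score (r = -0.86, p = 0.00372; rho = -0.64, p = 0.0540), Mef2d with the endothelial score (r = -0.79, p = 0.00389; rho = -0.67, p = 0.0389) and Hdac7 with Mef2d (r = -0.80, p = 0.00393; rho = -0.77, p = 0.0123), all by permutation. HT2 held an extreme value of at least 1 measure in all 5 relations, although the highest microglia score was that of HT5 (10.07, HT2 10.02). Without the 2 mice farthest from the median of the first measure, HT2 among them each time, r was 0.70 (exact p = 0.0671) for Hdac7 with the endothelial score and 0.70 (exact p = 0.0550) for Mef2c with the glutamatergic score. For the 3 inverse relations it was -0.56, -0.57 and -0.57, with exact permutation p-values of 0.159, 0.142 and 0.146. The relations were thus weaker without those mice, and the range of the measure was narrower too.

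Each genotype holds 5 mice, too few for a correlation within it, and the relations were instead repeated after removal of the genotype means. Hdac7 with the endothelial score (r = 0.89) and Mef2c with the glutamatergic score (r = 0.86) then passed, at an adjusted permutation p of 0.0400 each. After quantile normalisation, 2 of the 5 relations passed, Hdac7 with the endothelial score (r = 0.90) and Mef2c with the microglia score (r = -0.89), together with another, Mef2c with the astrocyte score (r = -0.90), at an adjusted permutation p of 0.0491 each. Mef2c with the glutamatergic score then no longer passed (r = 0.69, adjusted permutation p = 0.210), and both relations of Mef2d were weak, at r = -0.23 with the endothelial score and r = -0.17 with Hdac7. Hdac9 had r = -0.71 and rho = -0.87 with the astrocyte score (permutation p = 0.0237 and 0.00241, adjusted 0.121 and 0.152). Without HT2 and HT5 that r was -0.84, and after removal of the genotype means it was -0.47. The 3 highest astrocyte scores were those of HT2, HT4 and HT5. Endothelial markers had a higher estimate in HT mice for 7 of 10, with a median log2 difference of 0.09 and sums of 8465 to 11912 in HT and 8636 to 9501 in WT mice, and without HT2 for 5 of 10, with a median of 0.01.

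**Figure D5:**
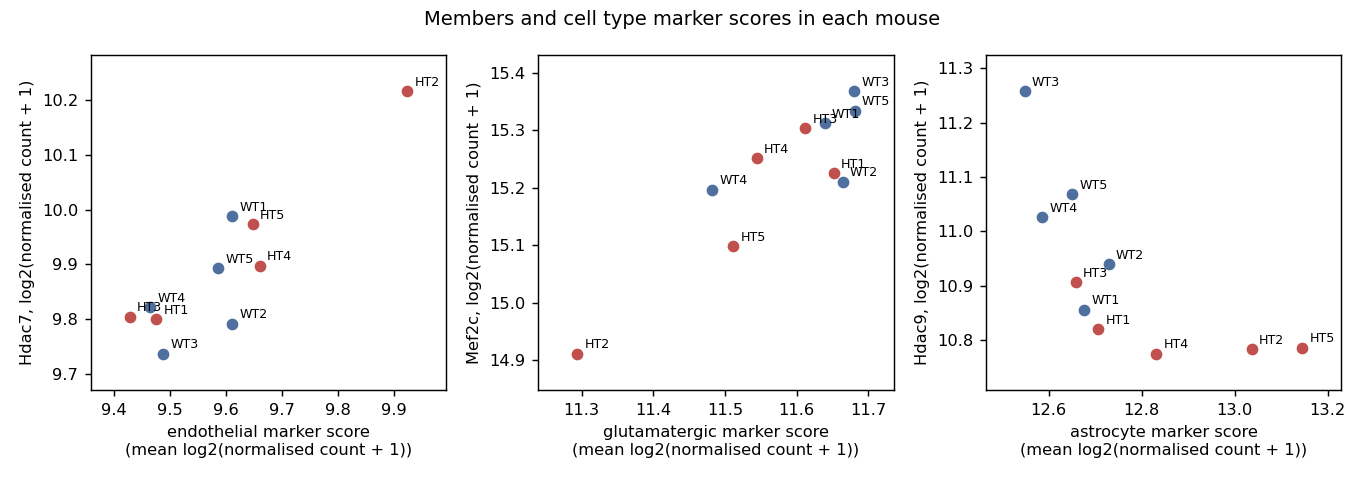
Hdac7 against the endothelial score, Mef2c against the glutamatergic score and Hdac9 against the astrocyte score in each mouse, with both axes in log2(normalised count + 1) and WT mice in blue and HT mice in red. HT2 is at the far end of the first and second panels (r = 0.90 and 0.89 over all 10 mice), and in the third the HT mice HT2, HT4 and HT5 combine high astrocyte scores with low Hdac9 (r = -0.71).

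The genes around the class IIa HDAC and MEF2 pathway were taken from 5 lists, and in each of them 0 genes passed the adjusted limma threshold. Of 7 other HDACs, 4 had a lower and 3 a higher estimate in HT mice, with a median log2 difference of -0.01 and none at an unadjusted p under 0.05. Without HT2, 5 were lower and 1 of them was at an unadjusted p under 0.05. The smallest limma p-values belonged to Hdac6, the tubulin deacetylase (-0.11, SE 0.05, exact permutation p = 0.0794), and to Hdac11, the class IV deacetylase (-0.11, SE 0.05, exact permutation p = 0.0714). Over all genes tested 51.2% had a lower estimate in HT, with a median of 0.00.

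Of 19 kinases that phosphorylate class IIa HDACs or act upstream of them, 10 had a lower and 9 a higher estimate, with a median log2 difference of 0.00. The 1 kinase of 19 at an unadjusted limma p under 0.05, where the background was 9.23% of genes, was Sik3, a salt-inducible kinase, at 3374 ± 152 in HT and 3148 ± 123 in WT (SD, n = 5 each; log2 difference 0.10, SE 0.04, exact permutation p = 0.0317, limma adjusted p = 0.52). Its values overlapped between the genotypes, although all 5 HT mice were above the WT mean, and it was at such a p in 11 of 22 alternatives. All 7 genes of the 14-3-3 and nuclear export list had a lower estimate, with a median of -0.06 and none at an unadjusted limma p under 0.05. Ywhag, which encodes 14-3-3 gamma, differed by -0.13 (SE 0.07, exact permutation p = 0.0476, limma adjusted p = 0.56) and Ywhaq, which encodes 14-3-3 theta, by -0.08. Without HT2, 6 of the 7 were lower and the median was -0.02, with Ywhag at -0.07 and Ywhaq at -0.05. With the astrocyte score as a covariate Ywhag was at -0.04 and Ywhaq at -0.01.

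Among 14 regulators of MEF2, 8 had a lower and 6 a higher estimate, with a median log2 difference of -0.02, and without HT2 the median was 0.03 with 6 lower. Ep300, an acetyltransferase that acts as a MEF2 coactivator, had 2568, 2407, 2266, 2662 and 2408 in HT1 to HT5 and 2224, 2363, 2136, 2199 and 2094 in WT1 to WT5. All HT mice but HT3 were above the highest WT mouse, WT2. The log2 difference was 0.16 (SE 0.05, exact permutation p = 0.0159, limma adjusted p = 0.48), with all 5 HT mice above the WT mean.

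Among 12 targets of MEF2, 11 had a lower estimate in HT mice, and 3 of them, Jun, Arc and Bdnf, were at an unadjusted limma p under 0.05, where over all genes tested 51.2% had a lower estimate and 9.23% were at such a p. The median log2 difference was -0.09. Jun, an immediate early gene, had 1228, 1223, 1086, 1129 and 1086 in HT1 to HT5 and 1334, 1394, 1339, 1269.6 and 1294 in WT1 to WT5, with every HT mouse below every WT mouse. Its log2 difference was -0.21 (SE 0.05, exact permutation p = 0.00794, the smallest possible, limma adjusted p = 0.39). This was the 1 target gene of 12 without overlap between the genotypes, where the background was 1.62%.

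Arc, an activity-regulated gene of excitatory synapses, had 1349.8, 919, 1214, 1167 and 962 in HT1 to HT5 and 1248, 1674, 1167, 1450.1 and 1356 in WT1 to WT5. HT2 and HT5 were below every WT mouse, and the other HT values overlapped with WT. The log2 difference was -0.30 (SE 0.11, exact permutation p = 0.0635, limma adjusted p = 0.49). Bdnf, a neurotrophin, differed by -0.20 (SE 0.09, exact permutation p = 0.0952, limma adjusted p = 0.54), with 4 of 5 HT mice below the lowest WT mouse. Without HT2, 11 of the 12 targets had a lower estimate, and 1 was at an unadjusted p under 0.05. The median was then -0.06, with Arc at -0.23 and Bdnf at -0.14. The part of cell content in the differences of this list was not tested. With the astrocyte score as a covariate Arc was at -0.13 and Bdnf at -0.08, and with the glutamatergic score they were at -0.20 and -0.08, none at an unadjusted p under 0.05. Jun was at -0.21 with either score and stayed under that threshold before adjustment.

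The genes whose pattern across the 10 mice was most like that of each member were found by Pearson's r after removal of the genotype means, among 13862 genes with a mean of at least 50. They were chosen for likeness, so no test applies. Mef2c had the closest match, Grin2b (r = 0.99, and 0.97 without HT2 and WT4), an NMDA receptor subunit gene, followed by Tiprl (r = 0.98). Hdac9 was most like Ncor1 (r = 0.96, and 0.95 without WT1 and WT3), which encodes the NCoR corepressor, and Lmo4 (r = 0.95). Ncor1 itself differed by 0.03 between the genotypes, whereas Hdac9 differed by -0.22.

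Hdac5 was most like Gm27032 (r = 0.96) and Nelfcd (r = 0.94), and Hdac7 was most like Uvssa (r = 0.97) and Myo6 (r = 0.96). For Mef2a the nearest genes were Syt14 (r = 0.96) and Gatad2b (r = 0.95), and for Mef2d they were Cbarp (r = 0.97) and Dctn3 (r = 0.95). Without HT2 and a further mouse, r with these genes was 0.93 and 0.92 for Hdac5 and 0.91 and 0.86 for Hdac7. It was 0.81 and 0.82 for Mef2a, and 0.96 and 0.96 for Mef2d. Hdac4 had the weakest nearest genes, Adar (r = 0.91) and Anks1 (r = 0.90), at 0.77 and 0.79 without WT1 and WT4. No member was among the genes compared.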

How the data were processed

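Poly-A RNA was made into stranded TruSeq libraries and sequenced in paired ends. Per the labels and methods, the authors estimated transcript abundance with Salmon 1.1.0 against GRCm38 with GC-bias correction, summed it to genes and divided it by DESeq2 1.30.1 size factors. The deposited values are thus a normalised signal, called the normalised count here. Only 6.38% to 21.2% of values under 20 were whole multiples of 1 step (tolerance 0.02), so depth was not recovered, no count model was run, and precision rests on the spread between mice.

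Groups came from the sample titles. Values were taken as log2(value + 1), which understates changes of low genes, and 16781 genes with a mean of at least 10 were fitted with limma 3.58.1 in R 4.3.3 (mean-variance trend, genotype only) with Benjamini-Hochberg adjustment at 0.05. Exact permutations covered all 252 assignments of 5 of 10 mice. Other computations used Python 3.11.15 with scipy 1.17.1, and the fit was tested on simulated data. Positions and exon lengths are from GENCODE on GRCm38. The members and lists were chosen with earlier results of these data known. The result of 1 more pathway list is not reported here. In each list, the genes named were those with an unadjusted p under 0.05 (at most 6), or the 2 with the smallest p, and for each member the 2 genes most like it. Alternatives were other pseudocounts, filters, scalings, weights, a block, marker covariates, lengths and each mouse left out.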

Additional observations from a re-analysis of the deposited data

Results flagged for a closer look

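In 46 groups of 5 values (members, paralog ratios and marker scores by genotype) the gap between an extreme mouse and its nearest neighbour was set against the range of the group, with Dixon's 95% limit of 0.71. In all, 3 groups passed this limit, where chance gives about 1 in 20, or 2.3 of 46.

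The Hdac5/Hdac9 log2 ratio of HT2 was 1.23, with the other HT mice at 0.80 to 0.90 (gap 0.777 of the range). HT2 had the highest Hdac5 value of the 10 mice. The Mef2a/Mef2d log2 ratio of HT4 was -0.18, with the other HT mice at -0.41 to -0.37 (gap 0.855 of the range). HT4 had the highest Mef2a value of the 10 mice and a Mef2d value below every WT mouse. The glutamatergic marker score of WT4 was 11.48, with the other WT mice at 11.64 to 11.68 (gap 0.787 of the range).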

How the results depend on the processing

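Under the 23 alternatives, 3 or 4 genes were called, no member passed after adjustment under any of them, and 0 of 9 paralog ratios passed under all 13 tried. Hdac9 and Hdac4 had a lower estimate in HT mice under every alternative, with a limma adjusted p for Hdac9 of 0.38 to 0.997. Its exact permutation p, which is not adjusted, was 0.0159 at the same difference of -0.22. Astrocyte and glutamatergic covariates, and the list counts without HT2, were added after seeing the data.

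The log2 differences of 5 members changed direction under an alternative, those of Mef2c (-0.13) and Hdac7 (0.09) under marker covariates and the near-zero ones of Hdac5, Mef2a and Mef2d under more settings. Hdac5 was at 0.0068 with upper-quartile scaling, 0.026 with quantile normalisation and 0.0058 with the striatal covariate, and between -0.069 and 0.039 with 1 mouse left out. Hdac7 was at -0.054 with the astrocyte and -0.0038 with the glutamatergic covariate. Mef2a was at -0.0047 with the striatal covariate and between -0.020 and 0.041 with 1 mouse left out, and Mef2c was at 0.0072 with the astrocyte covariate. Mef2d was at 0.012 with quantile normalisation, 0.030 with the astrocyte and 0.027 with the glutamatergic covariate, and between -0.037 and 0.0093 with 1 mouse left out. The Mef2a/Mef2d ratio ran from -0.021, without HT4, to 0.039. The cause of these shifts was not tested, and each shifted difference of a member lay within its 95% interval.

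The number of correlations past the threshold was 5, 2 after removal of genotype means and 3 after quantile normalisation, 2 of these among the 5. Levels per kilobase of the longest protein-coding transcript were 6107 for Mef2c, 1529 for Mef2d, 1164 for Mef2a, 713 for Hdac5, 291 for Hdac4, 245 for Hdac9 and 226 for Hdac7, as those lengths are shorter.

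Replicate numbers are shared between the genotypes, but nothing in the labels ties them to litters or batches, and same-numbered mice deviated together only weakly (r = -0.04 to 0.10), with 3 of 5 HT mice closest to their own number. With the replicate number as a block, 3 genes passed and the Hdac9 difference of -0.22 had a limma adjusted p of 0.50.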
